A study of Mus musculus with 12 samples.

Results

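The microRNAs mmu-miR-103 and mmu-miR-107 were followed across untreated and tunicamycin-treated mouse embryonic fibroblasts (MEFs) with and without XBP1. They were chosen by name, as the 2 of 650 miRNAs on the array that carry these names, with earlier results of these data known. The fibroblasts were of C57BL/6 background and were wild type (XBP1WT) or knockout (XBP1KO) for XBP1. Each genotype was left untreated or received 2 ug/mL tunicamycin, which blocks N-linked glycosylation in the endoplasmic reticulum, for 12 h or 24 h. The 12 arrays formed 6 groups of 2, from experiments described as independent, and the labels do not say how many embryos or clones the cells came from. XBP1 drives the unfolded protein response once the sensor IRE1 has spliced its mRNA, and the study asked which miRNAs respond to tunicamycin in a manner that depends on it. The array holds miRNA probes, so the loss of XBP1 itself could not be checked here.

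miR-103 and miR-107 are made from hairpins in introns of the pantothenate kinase genes. Those host genes encode the enzymes that start coenzyme A synthesis, so that the miRNAs are transcribed along with genes of lipid and energy metabolism. In mouse the pair is known for lowering insulin sensitivity through caveolin-1, and in human cells for repressing Dicer, the enzyme that cuts precursor miRNAs into their mature form.

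The mature sequences of the 2 members are close to each other. They are given from RefSeq (GRCm38.p6), 5′ to 3′, with the seed, bases 2 to 8, in capitals.
miR-103: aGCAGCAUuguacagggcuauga
miR-107: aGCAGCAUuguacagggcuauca
The sequences were identical at 22 of 23 positions. The exception is G22C, counted from the 5′ end of miR-103, which lies outside the seed. The seed GCAGCAU was held by 2 of the 1679 mature mouse names in the table, miR-103-3p and miR-107-3p.

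A neighbouring seed is carried by the miR-15/16 group, which restrains the cell cycle and is used below for comparison. Its AGCAGC starts at base 2, whereas in miR-103 and miR-107 the same letters start at base 1, so the seeds are shifted by 1 base. The seed is again in capitals.
miR-16: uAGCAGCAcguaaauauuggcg
miR-322: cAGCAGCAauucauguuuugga
miR-503: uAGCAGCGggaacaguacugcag

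The 3 hairpins lie inside their host genes and on the same strand, and the mature arm is in capitals in each. Mir103-1 is in Pank3 (GRCm38.p6, chr11:35782396-35782481, plus strand), Mir103-2 in Pank2 (chr2:131288052-131288137, plus strand) and Mir107 in Pank1 (chr19:34820687-34820773, minus strand).
Mir103-1: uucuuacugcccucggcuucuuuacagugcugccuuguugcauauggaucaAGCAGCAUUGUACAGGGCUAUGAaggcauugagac
Mir103-2: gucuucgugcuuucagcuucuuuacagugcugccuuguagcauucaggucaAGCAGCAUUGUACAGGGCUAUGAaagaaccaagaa
Mir107: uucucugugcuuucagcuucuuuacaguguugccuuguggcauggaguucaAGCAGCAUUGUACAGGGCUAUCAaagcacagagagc
Both miR-103 hairpins give the same mature sequence, so the array signal of miR-103 cannot be divided between Pank3 and Pank2.

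Total unscaled signal of the mouse miRNAs ran from 94809 to 185591 on the 4 untreated arrays and from 14076 to 78153 on the 8 tunicamycin arrays, without overlap. Values below are therefore scaled signals, in intensity units after each array was brought to an equal 75th percentile, taken over the 95 mouse miRNAs with a detection call on each of the 12 arrays, and differences are on the log2 scale. All 4 untreated arrays were on 1 slide and all 8 tunicamycin arrays on the other, so treatment and slide cannot be told apart. Within each slide, wild type arrays lay in row 1 and knockout arrays in row 2, so row and genotype cannot be told apart either. Of the 10 fibroblast marker miRNAs on the array, 10 were detected on some array and 7 on all of them, whereas 0 of 7 epithelial and 0 of 6 blood markers were detected on any. Of the markers of other cell types, 1 of 2 endothelial, 1 of 4 muscle and 3 of 4 neural markers were detected on some array and none of these on all 12. The summed scaled signal of the fibroblast markers moved with the groups. It was 19319 to 20624 in untreated wild type, 13125 to 13978 at 12 h and 14212 to 19942 at 24 h, and in knockout 26256 to 27092, 12123 to 14999 and 20049 to 20658. The summed muscle markers, of which miR-206 alone was detected, were at 32.8 to 104 in wild type at 12 h and 58.7 to 77.9 in knockout at 12 h, against at most 10.6 in the other groups. The summed neural markers, of which miR-9, miR-9* and miR-128 were detected, were at 52.9 to 57.4 in untreated knockout and 8.30 to 8.85 in untreated wild type, at most 0.427 and 13.0 at 12 h, and at most 5.84 and 28.2 at 24 h in wild type and knockout. The endothelial sum was at most 26.0 on any array, in knockout at 24 h. The part of these markers in the results was not tested. In these bulk samples, fewer cells of a type and less RNA per cell cannot be told apart.

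Both members were lower after tunicamycin in both genotypes, with the largest differences at 12 h. In wild type, miR-103 had a scaled signal of 146 and 144 untreated, 58.7 and 57.5 at 12 h, and 81.2 and 58.7 at 24 h. In knockout, it had 211 and 215 untreated, 73.5 and 72.0 at 12 h, and 121 and 149 at 24 h. In each genotype the untreated arrays lay above every tunicamycin array. miR-107 gave 128 and 129 in untreated wild type, 62.5 and 63.0 at 12 h, and 87.0 and 65.6 at 24 h. In knockout, miR-107 gave 170 and 187 untreated, 79.7 and 73.7 at 12 h, and 110 and 130 at 24 h. Again no tunicamycin array reached the untreated arrays of its genotype, and the 2 arrays of a group were close at 12 h and further apart at 24 h.

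**Figure D1:**
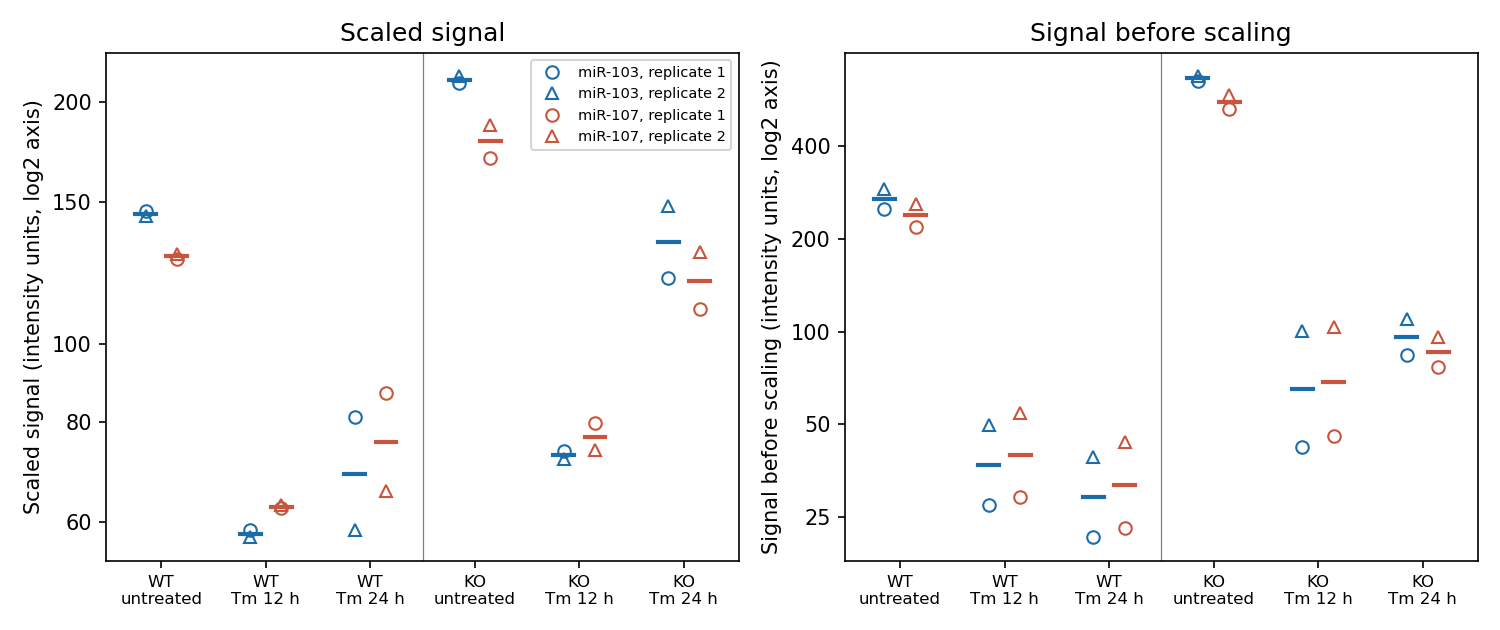
Signal of miR-103 (blue) and miR-107 (red) on each of the 12 arrays, with bars at the group mean, after scaling (left) and before it (right), in intensity units on log2 axes; WT is wild type, KO is XBP1 knockout and Tm is tunicamycin. In both panels every tunicamycin point lies below the untreated points of its genotype.

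At 12 h, miR-103 fell by 1.32 (SE 0.17) in wild type, 2.50-fold, with a limma adjusted p = 0.00105 over 256 tested miRNAs. miR-107 fell by 1.04 (SE 0.16), 2.05-fold, with a limma adjusted p = 0.00205. Both members were thus called lower, in a comparison where 25.4% of all tested miRNAs were. Falls of this kind were common. Among the 95 miRNAs detected on all arrays, 34 were called lower, the median difference was -0.42, and 6, miR-103 included, had a fall as large as that of miR-103. In knockout, miR-103 fell by 1.55 (SE 0.17), 2.93-fold, with a limma adjusted p = 0.000579, and miR-107 by 1.22 (SE 0.16), 2.33-fold, with a limma adjusted p = 0.00108. There too both were called lower, against 25.4% of tested miRNAs, with a median of -0.44 over the 95. These sizes hold after scaling and are not absolute falls. Before scaling, miR-103 had 251 to 290 in untreated wild type and 27.4 to 49.8 at 12 h. In knockout it had 655 to 677 and 42.2 to 101. Over the processing alternatives, its 12 h difference reached -3.01 in wild type and -3.39 in knockout. Whether less miRNA in the cells or less labelled RNA lowered the unscaled signal was not tested.

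At 24 h the differences from untreated cells were smaller than at 12 h. In wild type, miR-103 fell by 1.07 (SE 0.17), 2.11-fold, with a limma adjusted p = 0.00524, and miR-107 by 0.77 (SE 0.16), 1.70-fold, with a limma adjusted p = 0.0159. Both were called lower, against 14.8% of tested miRNAs. In knockout, miR-103 fell by 0.67 (SE 0.17), 1.59-fold, with a limma adjusted p = 0.0449, while the difference of -0.58 (SE 0.16) for miR-107 missed the threshold (limma adjusted p = 0.0594). That is 1 of 2 members called lower, against 10.9% of tested miRNAs. With 1 array left out in turn, the call for miR-103 was lost in 9 of 12 settings, and it held without either wild type array at 24 h or without the second knockout array at 24 h. The wild type call for miR-107 was lost without either untreated wild type array and without the second array at 24 h (-0.56, limma adjusted p = 0.0567). The median over the 95 miRNAs was -0.08 in wild type and -0.05 in knockout at this time.

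The direction of these falls depended on the background correction. The falls above use the scanner software's background-subtracted signal. With normexp correction and an offset of 50, the 12 h difference in wild type was 0.15 for miR-103 and 0.30 for miR-107, neither past the threshold, and that in knockout was -0.49 and -0.25. The same correction moved the median of the 95 miRNAs from -0.42 to 0.30 in wild type and from -0.44 to 0.20 in knockout. The offset was larger than the unscaled signal of the brighter probe of either member on the 4 wild type tunicamycin arrays, which ran from 18.8 to 43.9. The same held on the first knockout array at 12 h, at 36.7 for miR-103 and 36.2 for miR-107. The part of the offset in the turned signs was not tested. With normexp and no offset, an alternative added after the data were seen, the wild type values were -0.48 and -0.22 and those in knockout -1.27 and -0.92, of which that of miR-103 in knockout was past the threshold (limma adjusted p = 0.0220).

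**Figure D2:**
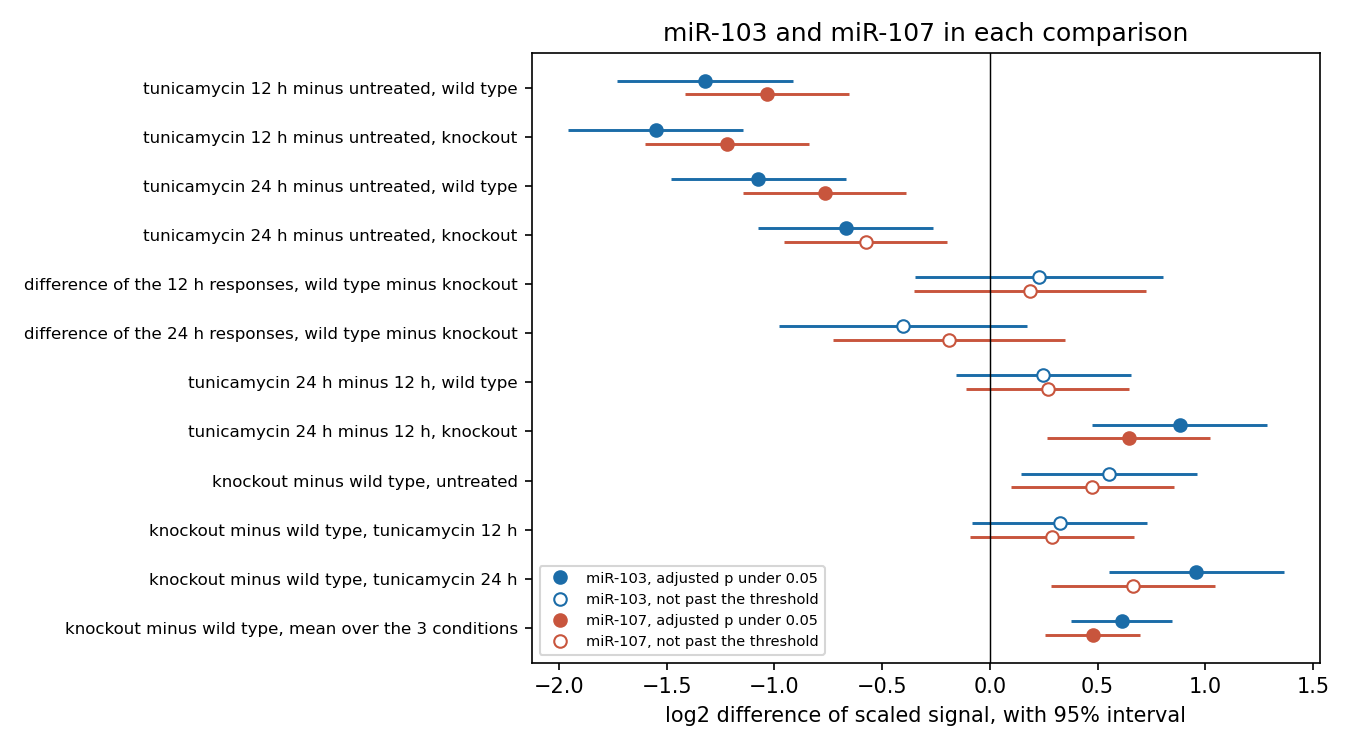
Log2 differences of miR-103 and miR-107 in the comparisons of the design, with 95% confidence intervals from the limma fit, filled where the adjusted p was under 0.05 and open where it was not. The 4 tunicamycin responses lie below 0 and the knockout minus wild type differences above it. The 2 differences between the genotypes' responses have intervals that include 0. So do knockout minus wild type at 12 h and 24 h minus 12 h in wild type, for both members.

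Whether the fall depended on XBP1 was tested as the difference of the responses, wild type minus knockout. For miR-103 it was 0.23 at 12 h (SE 0.24, 95% interval -0.35 to 0.80, limma adjusted p = 1). For miR-107 it was 0.19 (SE 0.23, interval -0.35 to 0.72, limma adjusted p = 1). Neither member was called, against 5.86% of tested miRNAs. These intervals leave room for a response weaker or stronger in knockout. At 24 h the difference was -0.40 for miR-103 (SE 0.24, interval -0.98 to 0.17, limma adjusted p = 0.619) and -0.19 for miR-107 (SE 0.23, interval -0.73 to 0.35, limma adjusted p = 1). Again 0 of 2 were called, against 4.69% of tested miRNAs.

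Between 12 h and 24 h both members rose in knockout. miR-103 was 0.88 higher at 24 h (SE 0.17, 1.84-fold, limma adjusted p = 0.00922) and miR-107 0.64 higher (SE 0.16, 1.56-fold, limma adjusted p = 0.0201). Both were called higher, against 17.6% of tested miRNAs and 38 of the 95 miRNAs detected on all arrays. Within the 2 scans that held both times, the knockout difference was 0.72 and 1.05 for miR-103 and 0.47 and 0.82 for miR-107. In wild type the corresponding differences were 0.25 (SE 0.17, limma adjusted p = 0.349) and 0.27 (SE 0.16, limma adjusted p = 0.288). Neither was called, against 21.9% of tested miRNAs, and within scans the wild type values were 0.47 and 0.03 for miR-103. The knockout call was lost for miR-107 without either array at 12 h or without the second array at 24 h (limma adjusted p from 0.0528 to 0.105), and for miR-103 without the second array at 12 h (limma adjusted p = 0.0574). Whether the 2 genotypes differ in this later rise was not tested. The median of the 95 miRNAs also lay above 0 from 12 h to 24 h, at 0.36 in wild type and 0.50 in knockout.

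The mean of both members was higher in knockout than in wild type cells in each condition. Averaged over the 3 conditions, miR-103 was 0.61 higher in knockout (SE 0.10, 1.53-fold, limma adjusted p = 0.00597). miR-107 was 0.48 higher (SE 0.09, 1.39-fold, limma adjusted p = 0.0118). Both were called higher, against 10.2% of tested miRNAs. The knockout array was above the wild type array of the same scan and time in 6 of 6 pairs for each member. The median of the 95 miRNAs was -0.12, on the other side of 0. Under normexp with the offset, the averages were -0.01 and -0.06, with a median of -0.30, and the 12 h differences turned to -0.36 and -0.33.

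Taken condition by condition, the genotype difference was past the threshold at 24 h alone and for miR-103 alone. Untreated, it was 0.55 for miR-103 (SE 0.17, limma adjusted p = 0.0943) and 0.48 for miR-107 (SE 0.16, limma adjusted p = 0.120), and 0 of 2 members were called higher, against 5.08% of tested miRNAs. Without any 1 of the 4 arrays at 24 h the untreated difference of miR-103, unchanged in size, was past the threshold (limma adjusted p from 0.0302 to 0.0450). At 12 h it was 0.32 for miR-103 (SE 0.17, limma adjusted p = 0.446) and 0.29 for miR-107 (SE 0.16, limma adjusted p = 0.450), again with 0 called, against 5.08%. At 24 h it was 0.96 for miR-103 (SE 0.17, limma adjusted p = 0.0155) and 0.67 for miR-107 (SE 0.16, limma adjusted p = 0.0504), 1 of 2 called higher against 4.69% of tested miRNAs. Without the first array of either genotype at 24 h, miR-107 passed too (0.87 and 0.78). Within the 2 scans, the 24 h difference of miR-103 was 0.58 and 1.34, and that of miR-107 was 0.34 and 0.99.

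The 6 groups fell in the same order for both members. Untreated knockout was highest, followed by untreated wild type, knockout at 24 h, knockout at 12 h, wild type at 24 h and wild type at 12 h. Of the 5 steps between neighbours, that from knockout at 24 h down to knockout at 12 h was past the threshold for both members. Untreated wild type overlapped knockout at 24 h, and knockout at 12 h overlapped wild type at 24 h, for both members.

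The ratio of the members within an array, which is free of the scaling between arrays, shifted with treatment. On the log2 scale, miR-103 minus miR-107 was 0.20 and 0.16 in untreated wild type and 0.31 and 0.20 in untreated knockout. After 12 h the wild type arrays gave -0.09 and -0.13 and the knockout arrays -0.12 and -0.03. After 24 h wild type gave -0.10 and -0.16, but knockout 0.13 and 0.19. The wild type tunicamycin arrays and the knockout arrays at 12 h lay below 0. The knockout arrays at 24 h lay below both untreated knockout arrays, and the higher of them lay within the range of untreated wild type. The mean difference, tunicamycin minus untreated, was -0.25, with an exact two-sided permutation p = 0.00444 over the 225 arrangements within genotypes, the smallest they can give. It shows that the array signal of miR-103 fell further than that of miR-107, and not how far either fell. Treatment and slide cannot be told apart here either. The dimmer probe of miR-103 had no spot well above background on 6 of the tunicamycin arrays. From the brighter probe of each member alone the difference was -0.20 (exact p = 0.0178). Knockout minus wild type, the ratio differed by 0.14 (exact two-sided permutation p = 0.0278, 216 arrangements within conditions), a call lost with either probe alone (exact p = 0.0833 for each) and without any of 4 single arrays (exact p from 0.0556 to 0.0648).

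**Figure D3:**
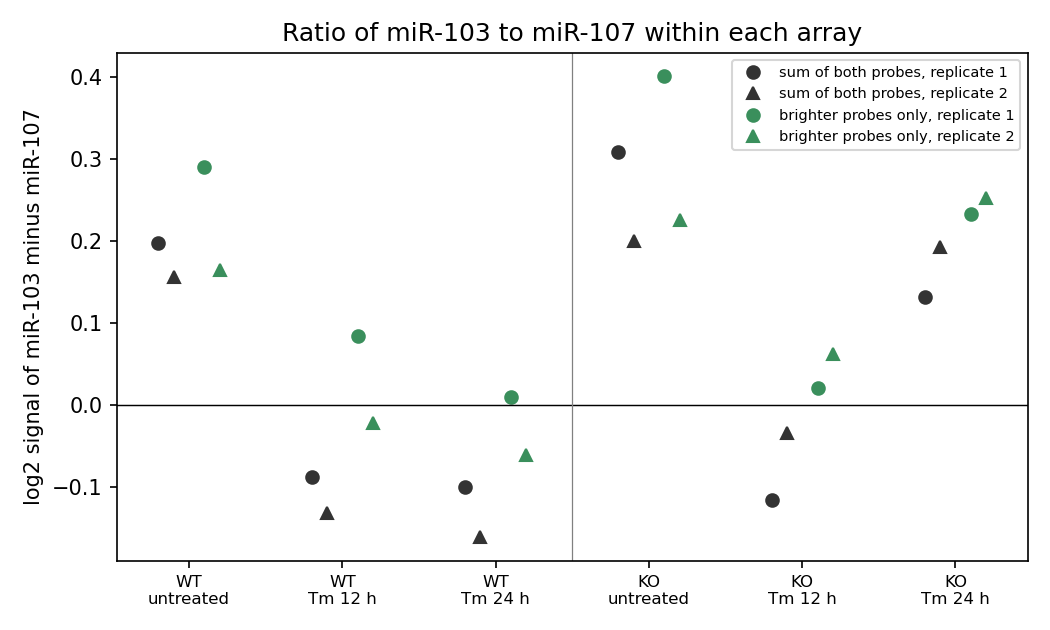
Log2 ratio of miR-103 to miR-107 within each of the 12 arrays, by group, from the sum of both probes (black) and from the brighter probes alone (green); WT is wild type, KO is knockout and Tm is tunicamycin. In the sums the 4 untreated arrays lie between 0.16 and 0.31, and of the 8 tunicamycin arrays the 2 of knockout at 24 h, at 0.13 and 0.19, are the only ones above 0.

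Each member was read by 2 probes of 10 spots each, and the probes differed in how far they stood above background. The brighter probe of each member was well above background in every spot on 12 of 12 arrays. The dimmer probe of miR-103 was so in every spot on 4 arrays and in no spot on 6, and that of miR-107 in every spot on 6 arrays and in no spot on 2. The dimmer probe gave 16.3% to 20.9% of the miR-103 signal on untreated arrays and 11.7% to 15.9% on tunicamycin arrays, with no overlap. For miR-107 it gave 21.4% to 22.3% and 18.2% to 23.8%, and these ranges overlap. With a single base between the 2 mature sequences, binding of 1 member to the other's probes was not tested, and the probe sequences were not used here.

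**Figure D4:**
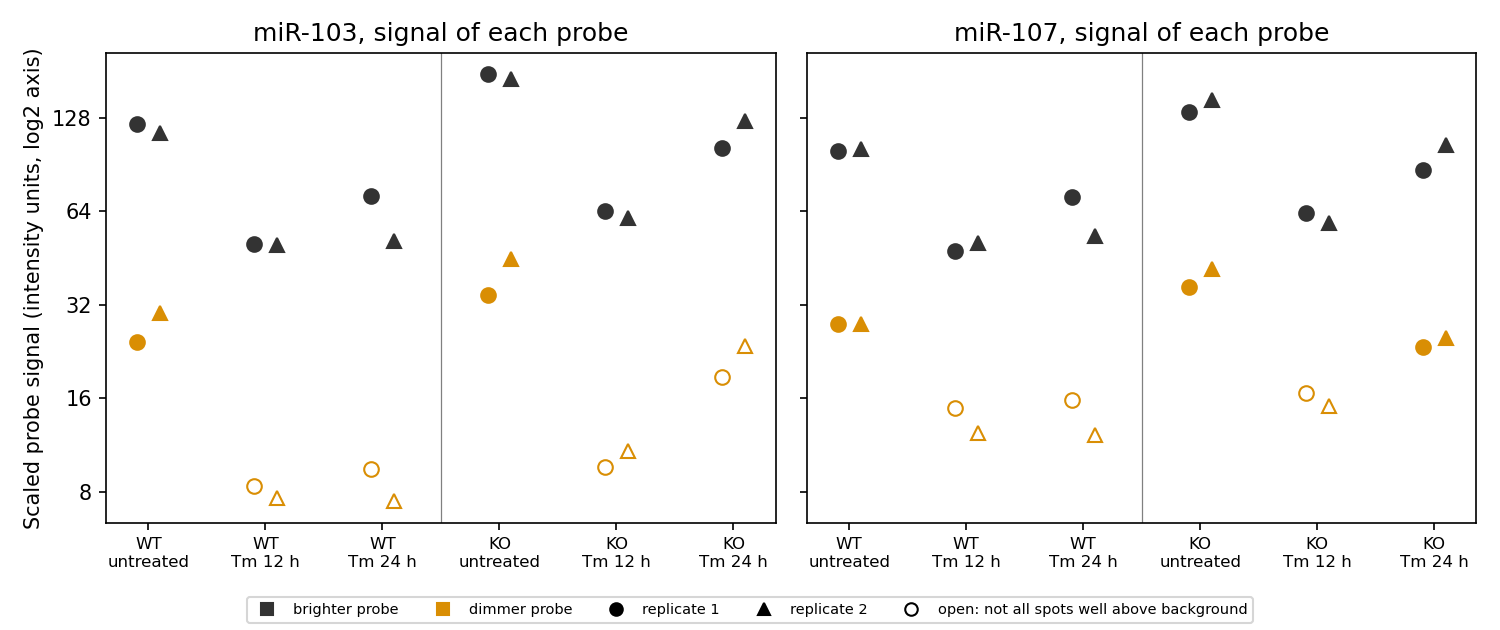
Scaled signal of the 2 probes of miR-103 and of miR-107 on each of the 12 arrays, in intensity units on a log2 axis, open where not every spot stood well above background; WT is wild type, KO is knockout and Tm is tunicamycin. The brighter probe of each member does so on all 12 arrays and the dimmer probe on some of them.

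The 7 miRNAs with the seed shifted by 1 base, all tested, went the same way at 12 h, some of them further. Of these, 6 of 7 were called lower at 12 h in wild type and 6 of 7 in knockout, against 25.4% of tested miRNAs in each genotype. Their medians were -0.77 and -2.04, beside -0.09 and 0 over all 256 tested miRNAs, many of them at the floor, and -0.42 and -0.44 over the 95 detected on all arrays. With members that no array of a group detected set to their bound, the medians were -0.70 and -1.995. miR-15b did not pass in either genotype, with differences of -0.41 and -0.58. miR-15a, miR-16 and miR-322, detected on all arrays, passed in both. miR-195 and miR-503 were tested only because both arrays of the untreated groups detected them, and there they were high. Their calls were thus shaped by that filter and are not independent support. The floor also shaped the calls of miR-503 in both genotypes and those of miR-195 and miR-497 in knockout at 12 h, which are not independent support either. At 24 h, 3 of 7 were called lower in wild type, against 14.8% of tested miRNAs, and 4 of 7 in knockout, against 10.9%. These were miR-195, miR-322 and miR-503 in both genotypes and miR-497 in knockout, of which miR-322 alone was detected on all arrays. The filter and the floor bear on the others as at 12 h. miR-15a, miR-15b and miR-16 were not called at 24 h in either genotype. Differences lay below 0 for 6 of 7 in wild type and 5 of 7 in knockout, where miR-15a and miR-15b lay above it. With 1 array left out, the wild type count at 12 h was 2 without either untreated wild type array or the first wild type array at 12 h, and 3 without the second at 12 h. The knockout count at 12 h ran from 4 to 7, and the wild type count at 24 h was 5 without either knockout array at 24 h. All 7 differences at 12 h stayed below 0 in each of these fits. The list was chosen with earlier results of these data known, and its direction is not independent evidence.

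miR-322, which lies beside miR-503 on the X chromosome, had a scaled signal of 289 and 273 in untreated wild type, 64.8 and 85.8 at 12 h, and 90.9 and 43.8 at 24 h. In knockout it had 687 and 711 untreated, 96.1 and 94.2 at 12 h, and 151 and 189 at 24 h. Its untreated arrays lay above all tunicamycin arrays of either genotype. It fell by 1.91 (SE 0.32, limma adjusted p = 0.00276) at 12 h in wild type and by 2.88 (SE 0.32, limma adjusted p = 0.000580) in knockout. In untreated cells it was 1.32 higher in knockout (SE 0.32, limma adjusted p = 0.0399), and 4 of the 7 were called higher there, against 5.08% of tested miRNAs. miR-16, which is made from 2 loci, fell by 0.85 (SE 0.24) in each genotype at 12 h, and miR-15a by 0.77 (SE 0.21) in wild type and 0.74 (SE 0.21) in knockout.

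miR-195 and miR-497, which share a cluster, and miR-503 ended near the floor of the scale. All lay at the floor on the knockout arrays at 12 h, without spread, which makes their standard errors too small. On no knockout array at 12 h was any of these 3 detected. There miR-195 was at least 6.15-fold lower than in untreated knockout (limma adjusted p = 0.000165), miR-497 at least 7.35-fold lower (limma adjusted p = 0.000146) and miR-503 at least 3.99-fold lower (limma adjusted p = 2.34e-05). Such bounds set the brighter group's mean against, on each array of the dimmer group, the highest of the lowest detected signal, the miRNA's own signal and the floor, and the adjusted p is that of the fitted difference. In wild type at 12 h, miR-195 fell by 0.65 (SE 0.22), miR-497 by 0.70 (SE 0.23) and miR-503 was at least 1.18-fold lower. These 3 directions depended on the background correction. Under normexp with the offset, the wild type differences at 12 h turned to 1.18 for miR-195, 1.09 for miR-497 and 1.204 for miR-503, all past the threshold, and those in knockout to 0.24, 0.10 and 0.46, none past it. The other 4 of the 7 stayed below 0 there in each genotype, with list medians of -0.33 in wild type and -0.42 in knockout. With normexp and no offset, the same 3 were above 0 in wild type, at 0.98, 0.82 and 0.77, none past the threshold, and all 7 were below 0 in knockout. The higher level of miR-503 in untreated knockout cells also turned, to -0.78 when scaled by the total gene signal, and went to near 0 under normexp with the offset and without scaling.

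**Figure D5:**
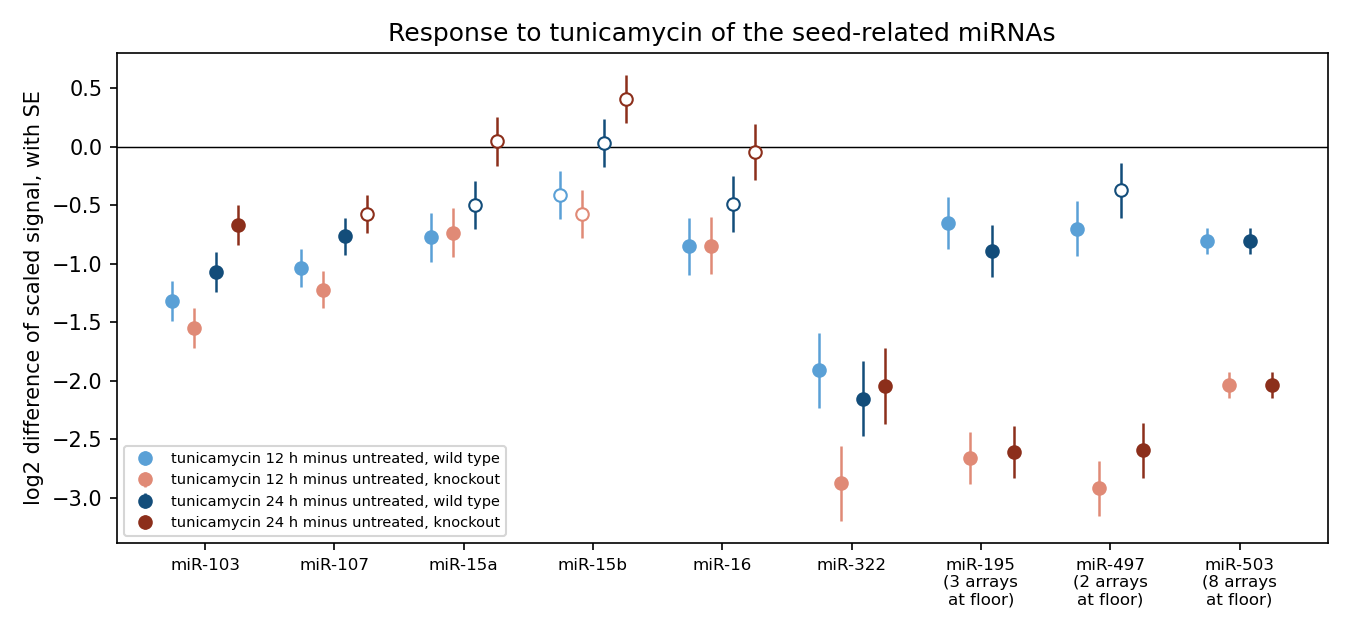
Log2 differences of miR-103, miR-107 and the 7 seed-related miRNAs after tunicamycin, by genotype and time, with bars for the SE of the limma fit and open points where the adjusted p was not under 0.05. At 12 h all points lie below 0, which for miR-103 and miR-107 in wild type and for miR-195, miR-497 and miR-503 in both genotypes did not hold under normexp with the offset, and miR-195, miR-497, miR-322 and miR-503 lie furthest down in knockout, where the size for miR-195, miR-497 and miR-503 is limited by the floor.

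Other lists tied to these members in the literature were described in the same way. Of 8 tested miRNAs of lipid and glucose metabolism, 4 were called lower and 0 higher at 12 h in each genotype, against 25.4% of tested miRNAs called lower in each, with medians of -0.69 in wild type and -0.71 in knockout. The knockout count was 1 without any one of the untreated arrays of either genotype or the knockout arrays at 12 h. miR-378, from an intron of Ppargc1b, fell by 1.99 (SE 0.28) in wild type, and in knockout it fell by 1.86 (SE 0.28). miR-26b fell by 0.93 (SE 0.26) and 0.86 (SE 0.26). miR-29a fell by 0.50 (SE 0.10) and 0.30 (SE 0.10). The fourth called in wild type, miR-378*, was not detected at 12 h and differed by -0.17 with its levels at or near the floor, and the fourth in knockout, miR-27b, fell by 1.30 (SE 0.40).

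Of 7 tested p53-linked miRNAs, 2 were called higher and 1 lower at 12 h in wild type, with a median of 0.05, and 1 and 1 in knockout, with a median of -0.30. Of all tested miRNAs, 25.4% were called higher in wild type and 23.8% in knockout, and 25.4% were called lower in each genotype. miR-34b-3p, of a family of direct p53 targets, had a scaled signal of 56.9 and 162 on the wild type arrays at 12 h and 100.1 and 85.1 on those of knockout. On the other 8 arrays it was not detected and lay at the floor. It was at least 9.56-fold higher than untreated at 12 h in wild type (limma adjusted p = 0.000971) and at least 9.20-fold higher in knockout (limma adjusted p = 0.00104). miR-194 had 60.9 and 89.5 at 12 h and 115 and 98.7 at 24 h in wild type, and in knockout it was above the floor on a single array, at 59.7 at 24 h. It was at least 7.36-fold higher than untreated at 12 h in wild type (limma adjusted p = 0.0135). Both miR-34b-3p and miR-194 were tested only because of their detection in tunicamycin groups, where they were high. Their untreated arrays lay at the floor, without spread. The calls of these miRNAs were thus shaped by the filter and the floor, and their adjusted p-values are not independent support. With 1 array left out, the wild type count called higher was 1 without either untreated wild type array or the second wild type array at 12 h, and 3 without the first. The count called lower was 3 in each genotype without either knockout array at 24 h, and the wild type call of miR-143 was lost without the second untreated wild type array. Without scaling between arrays, neither miR-34b-3p nor miR-194 was called. The one called lower, miR-143, fell by 1.36 (SE 0.28) in wild type, and in knockout it fell by 1.99 (SE 0.28). miR-34b-5p, the other arm of the miR-34b hairpin, differed by -0.76 and -0.44, neither past the threshold. miR-210, the miRNA most tied to hypoxia, was at least 1.90-fold lower at 12 h in wild type (limma adjusted p = 0.000103) and fell by 2.81 (SE 0.11) in knockout. Under normexp with the offset, several of these directions turned as well. The 12 h differences in wild type then were 0.24 for miR-378, 0.41 for miR-26b, 1.38 for miR-378*, 0.42 for miR-34b-5p, 0.79 for miR-143 and 1.11 for miR-210, and that of miR-26b in knockout was 0.16. With the median as the scale, miR-29a in knockout was at 0.19, and with the total gene signal miR-143 in wild type was at 0.011. With normexp and no offset, miR-143 and miR-210 in wild type were at 0.30 and 0.71, neither past the threshold. The opposite arms of the 3 hairpins, 4 names in all, had 0 entries on the array.

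Over the 12 arrays, the scaled log2 signals of miR-103 and miR-107 had a Pearson correlation of 0.997, described here over arrays that share groups, slides and scaling. Among the 94 other miRNAs detected on all arrays, each was the nearest to the other. The next were the same for both members. miR-130a had 0.968 with miR-103 and 0.975 with miR-107, miR-199a-5p 0.960 and 0.962, miR-322 0.959 and 0.957, and miR-199a-3p 0.942 and 0.942. miR-199a-5p and miR-199a-3p, the arms of hairpins abundant in mesenchymal cells, are also among the fibroblast markers. At 12 h, miR-130a differed by -1.13 in wild type and -1.50 in knockout, close to the values of the members.

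The promoters of the host genes bear on the question of XBP1, some of whose binding sites hold an ACGTG core. Windows of 300 bases around a transcript start, most of it upstream, were searched on both strands for 5 motifs, and matches to the first 3 are in capitals in the windows below. CCAAT and CCACG, the parts of the endoplasmic reticulum stress element, were each in 3 of 6 host windows, against 37.4% and 32.8% of all 32851 mouse windows. The 6 windows belong to 3 genes, 2 to Pank1, 3 to Pank2 and 1 to Pank3. In each gene 1 window held both motifs, and that of Pank1 is not shown. ACGTG was in 1 of 6, a window of Pank2, against 19.6%. ACGTG and CCACG can overlap. The unfolded protein response element TGACGTGG and the full stress element, CCAAT followed after 9 bases of any kind by CCACG, were in 0 of 6, against 0.676% and 0.119%. The windows shown are that of Pank3 (GRCm38.p6, chr11:35769245-35769544, plus strand) and the Pank2 window with all 3 short motifs (chr2:131262250-131262549, plus strand), from RefSeq.
Pank3: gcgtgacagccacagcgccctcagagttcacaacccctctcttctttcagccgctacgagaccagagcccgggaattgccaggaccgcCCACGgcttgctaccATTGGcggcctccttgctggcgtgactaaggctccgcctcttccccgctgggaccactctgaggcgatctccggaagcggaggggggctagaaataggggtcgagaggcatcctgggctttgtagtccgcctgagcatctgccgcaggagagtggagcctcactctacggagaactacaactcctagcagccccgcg
Pank2: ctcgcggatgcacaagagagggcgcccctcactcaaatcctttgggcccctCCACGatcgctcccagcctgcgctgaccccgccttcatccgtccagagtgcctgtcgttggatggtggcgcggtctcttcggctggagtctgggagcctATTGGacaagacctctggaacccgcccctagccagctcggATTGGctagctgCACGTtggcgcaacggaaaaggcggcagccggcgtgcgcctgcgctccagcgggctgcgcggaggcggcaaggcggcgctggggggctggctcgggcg
A match is a description of the letters and not of binding, and no match says only that these letters are absent from the window.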

How the data were processed

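Cy3-labelled total RNA was hybridised to 1-colour Agilent miRNA arrays, and the scans were read, per the submitters' processing notes, with Agilent Feature Extraction 10.7.1.1. Per spot, the deposited scanner output gives an intensity that the software had background-subtracted but not normalized between arrays, per the file headers. The authors also deposited log2 values per miRNA, which matched the total gene signal of the scanner software within 1.15e-06 and so carry no scaling between arrays. Files with other columns (detection and outlier flags) were deposited by the authors as scanner output.

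Control spots and outlier spots were left out, processed signals were averaged per probe and summed per miRNA, and each array was scaled to an equal 75th percentile, taken over the 95 mouse miRNAs with a detection call on each of the 12 arrays. Signals under a floor of 10.0 (3.33 on the log2 scale), the 5th percentile of detected signals, were set to it. Of 611 mouse miRNAs, the 256 with a detection call on both arrays of some group were tested with limma 3.58.1 in R 4.3.3 (package data.table, version 1.17.8), in a single model with 1 mean per group, an intensity trend, and 6 residual and 0.981 prior degrees of freedom. The Benjamini-Hochberg method adjusted the p-values within each of 12 comparisons, with a threshold of 0.05. SE is the fit's standard error, with 2 arrays per group, and this small number limits the precision. Signals set to the floor lack spread, which makes standard errors there too small. Ratios within an array were tested with exact permutation tests in Python 3.11.15 (numpy 2.4.6, pandas 2.3.3), and plots made with matplotlib 3.10.9. The tests were checked on simulated normal data of equal spread. Those data had no floored values and no slide or scan effects, so the behaviour of the tests under these was not checked. The normexp alternative used median spot signals.

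The members and the lists of miRNAs were chosen with earlier results of these data known. Named miRNAs are the 2 members, the tested seed-related list, up to 4 miRNAs with the smallest p-values at 12 h of each list of metabolic, p53-linked and hypoxia miRNAs, and the 5 detected miRNAs that correlate best with each member. Sequences are from RefSeq, GRCm38.p6. The probe sequences were not used here. Replicate numbers were not taken as pairs in the main fit, since the labels do not say that they mark a shared batch. The correlation of same-numbered deviations ran from -0.55 to 0.87 over 15 pairs of groups, above 0.1 in 6. The lowest was between groups on different slides. Within a slide, arrays of the same number shared a scan. There knockout and wild type of the same condition correlated at 0.87 untreated, 0.42 at 12 h and 0.52 at 24 h. The other pairs of tunicamycin groups ran from -0.08 to 0.18. Scan as a random block was run as an alternative.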

Additional observations from a re-analysis of the deposited data

How the results depend on the processing

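The 24 differences and 2 ratios were recomputed under up to 27 alternatives, 12 of which left out 1 array. Of 648 values of the differences, the ratios not counted, 549 kept their direction and their side of the threshold. Of the rest, 50 lost the call or went to 0, 25 gained it and 24 changed sign. Of the direct tunicamycin responses, the sign of the falls changed under normexp with an offset of 50 alone. The log2 difference then became 0.15 at 12 h and 0.19 at 24 h for miR-103 in wild type, and 0.30, 0.36 and, in knockout at 24 h, 0.0770 for miR-107. In knockout the other falls became -0.49 and -0.0453 for miR-103 and -0.25 for miR-107, no longer called. Knockout minus wild type became -0.00588 and -0.0621 on average, -0.36 and -0.33 at 12 h, and 0.0519 and -0.0675 at 24 h. The 24 h minus 12 h rise in knockout became 0.45 and 0.33, uncalled. The difference of the 24 h responses turned to 0.23 and 0.28, and the ratio by genotype was 0.056.

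With normexp and no offset, chosen after seeing the data, the values no longer called were, for miR-103, -0.48 and -0.69 in wild type at 12 h and 24 h and -0.51 in knockout at 24 h. For miR-107 they were -0.22 and -0.37 in wild type and -0.92 in knockout at 12 h. Also uncalled were the knockout rise from 12 h to 24 h (0.76 and 0.51), knockout minus wild type at 24 h for miR-103 (0.64) and on average (0.25 and 0.15). Signs turned for knockout minus wild type at 12 h (-0.34 and -0.30), 24 h minus 12 h in wild type (-0.21 and -0.15) and the difference of the 24 h responses of miR-107 (0.0383).

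Quantile normalization removed the calls of miR-103 at 24 h in knockout (-0.70), of miR-107 at 24 h in wild type (-1.003), of knockout minus wild type at 24 h for miR-103 (1.08) and on average (0.64 and 0.50), and of the ratio by genotype (0.15). It brought 24 h minus 12 h in wild type past the threshold (1.04 and 1.06) and turned the difference of the 12 h responses (-0.16 and -0.19). The percentile over all mouse miRNAs removed the 24 h calls of miR-103 (-0.93 in wild type, -0.45 in knockout) and of miR-107 in wild type (-0.63), and added 24 h minus 12 h in wild type (0.96 and 0.98). The median as the scale, chosen after seeing the data, removed miR-103 at 24 h in knockout (-0.50) and the later rise of miR-107 in knockout (0.32), and added miR-107 by genotype at 24 h (0.69). The deposited values without scaling turned 24 h minus 12 h in wild type (-0.18 and -0.27), removed the later rise in knockout (0.67 and 0.34) and miR-103 by genotype at 24 h (1.75), and added miR-107 at 24 h in knockout (-2.63). The total gene signal added miR-107 at 24 h in knockout (-0.77) and by genotype at 24 h (0.98), turned 24 h minus 12 h of miR-107 in wild type (-0.0647) and removed the ratio by genotype (0.085).

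Keeping outlier spots added miR-107 at 24 h in knockout (-0.56) and its 24 h minus 12 h difference in wild type (0.46), and turned its difference of the 24 h responses (0.0286). The call of miR-103 at 24 h in knockout was also lost with the brighter probe alone (-0.62), with no filter on dim miRNAs (-0.67) and with the replicate number as a block (-0.67, limma adjusted p = 0.0747), and that block changed no other call of the members. The brighter probe alone removed the ratio by genotype (0.12), as did the dimmer probe (0.23). The dimmer probe put 24 h minus 12 h of miR-103 in wild type at 0 and added miR-107 at 24 h in knockout (-0.69) and by genotype at 24 h (0.80). Without the intensity trend, miR-107 was called at 24 h in knockout (-0.58) and by genotype at 24 h (0.67), the latter also among miRNAs detected on all arrays and with scan as a random block (0.67 each). The cause of these changes was not tested. Slide as a random block was not run, since slide is encoded in the groups.

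With 1 array left out in turn, where the lone array of a group is assumed to vary like the others, the differences from untreated cells ran, for miR-103 and miR-107, over -1.34 to -1.31 and -1.05 to -1.02 at 12 h in wild type, -1.57 to -1.54 and -1.29 to -1.15 at 12 h in knockout, -1.31 to -0.84 and -0.97 to -0.56 at 24 h in wild type, -0.82 to -0.52 and -0.69 to -0.46 at 24 h in knockout. The difference of the responses ran over 0.21 to 0.25 and 0.12 to 0.26 at 12 h and -0.64 to -0.17 and -0.39 to 0.0135 at 24 h. From 12 h to 24 h the ranges were 0.01 to 0.48 and 0.07 to 0.47 in wild type and 0.73 to 1.03 and 0.53 to 0.76 in knockout. Knockout minus wild type ran over 0.54 to 0.57 and 0.41 to 0.54 untreated, 0.31 to 0.34 and 0.23 to 0.35 at 12 h, 0.72 to 1.19 and 0.46 to 0.87 at 24 h and 0.53 to 0.69 and 0.41 to 0.54 on average. The ratio ran over -0.28 to -0.23 by treatment and 0.12 to 0.15 by genotype, where 4 of 12 settings lost the call. The sign of the difference of the 24 h responses of miR-107 turned without the second wild type array at 24 h. miR-107 gained the 24 h call in knockout without either wild type array or the second knockout array of that time.

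The number of tested miRNAs past the threshold, with its lowest and highest value over the alternatives, was 130 (40 to 192) at 12 h in wild type, 126 (48 to 183) at 12 h in knockout, 45 (10 to 191) at 24 h in wild type, 36 (3 to 188) at 24 h in knockout. For the difference of the responses it was 15 (0 to 31) at 12 h and 12 (0 to 44) at 24 h. The counts of 0 are limma's under normexp with no offset, where 12 and 3 miRNAs had an unadjusted p under 0.05. For 24 h minus 12 h it was 56 (12 to 104) in wild type and 101 (16 to 139) in knockout. For knockout minus wild type it was 32 (7 to 56) untreated, 13 (4 to 40) at 12 h, 20 (1 to 58) at 24 h and 59 (28 to 167) on average.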
